A study of Mus musculus with 14 samples.

Results

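The immediate early transcription factors were taken as 10 genes: Fos, Fosb, Fosl1, Fosl2, Jun, Junb, Egr1, Klf2, Klf4 and Ier2. They were found by symbol in a table of estimated RNA counts with 24015 entries, and all 10 were present. Their counts lay between 124, for Fosb, and 25486, for Klf4, over the 140 values, and all 10 passed the filter on low counts that left 15666 genes for testing.

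The cells were mouse embryonic fibroblasts, connective-tissue cells cultured from the embryo, of strain 129s2. They were taken at embryonic day 14.5, used at passages 3 to 4, and held for 18 hours in normal or glucose-free medium. WT-NT (n = 4) was wild type in normal medium, and WT-GS (n = 3) was wild type without glucose. KO-NT (n = 4) was SirT7-/- in normal medium, and KO-GS (n = 3) was SirT7-/- without glucose. Each library carries its group's name and its replicate number, as in WT-NT 4. The series asks how SirT7, an NAD-dependent enzyme of the sirtuin family, bears on the answer of such cells to glucose starvation. The labels give no separate culture or embryo for each replicate, so the p-values reflect only the variation among these samples, which may be technical.

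Immediate early genes are transcribed within minutes of a growth factor, stress or fresh serum, without new protein synthesis, and most of their messenger RNAs are short-lived. Fos and Jun family proteins pair through leucine zippers to form AP-1, which binds a short palindromic DNA element, whereas Egr1, Klf2 and Klf4 are zinc-finger factors. In fibroblasts many of these genes are switched on through the ERK branch of the MAP kinase cascade, which acts on the serum response factor SRF and its partners. Ier2 encodes a small nuclear protein that is induced together with them.

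Total counts ran from 59788270 to 91607861 per library. Sirt7 was at 16.9 to 23.1 CPM, a unit that corrects counts for the total of each library, in wild-type libraries and at 0.301 to 1.41 CPM in those labelled SirT7-/-. KO-NT 4 and KO-GS 3, as labelled, stood apart from their groups. The 10 fibroblast markers, collagens among them, summed to 30800 to 38460 CPM in WT-NT and 12920 to 13560 CPM in WT-GS, but to 15620 CPM in KO-NT 4, against 33740 to 38460 CPM in KO-NT 1 to 3. They summed to 28940 CPM in KO-GS 3, against 13260 and 13940 CPM in the other KO-GS libraries. Log2 changes that rest on SirT7-/- libraries are therefore given with and without these libraries. Of 16 macrophage markers 15 were in the table, and none of them was at 0 in every library. They summed to 336 to 2223 CPM in WT-NT, 13.8 to 385 CPM in WT-GS, 433 to 790 CPM in KO-NT and 122 to 1178 CPM in KO-GS. The 10 endothelial markers summed to 81.2 to 115 CPM in WT-NT, 85.0 to 171 CPM in WT-GS, 116 to 128 CPM in KO-NT and 109 to 116 CPM in KO-GS. In such bulk samples, fewer cells of a type and less RNA per cell cannot be told apart. The part of these cells in the results below was not tested.

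Promoters of 7 of the 10 genes were found by symbol in RefSeq on build GRCm38.p6, and those of Egr1, Fosl1 and Ier2 were not searched. The 250 bases before the start site are printed for Junb and Klf4, which changed in opposite directions without glucose, and for Fos, the classical immediate early gene. They run 5′ to 3′ on the gene's strand, and capitals mark a TATA box, a CCAAT box or a GC box, the last in either orientation. They lie at chr12:85473640-85473889, plus strand, for Fos, at chr8:84978749-84978998, minus strand, for Junb, and at chr4:55532476-55532725, minus strand, for Klf4.
Fos promoter: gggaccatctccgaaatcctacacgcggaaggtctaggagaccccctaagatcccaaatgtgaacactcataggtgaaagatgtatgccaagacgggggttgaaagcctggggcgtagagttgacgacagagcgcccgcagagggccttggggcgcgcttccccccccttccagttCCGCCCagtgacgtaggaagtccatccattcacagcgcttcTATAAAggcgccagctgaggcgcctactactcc
Junb promoter: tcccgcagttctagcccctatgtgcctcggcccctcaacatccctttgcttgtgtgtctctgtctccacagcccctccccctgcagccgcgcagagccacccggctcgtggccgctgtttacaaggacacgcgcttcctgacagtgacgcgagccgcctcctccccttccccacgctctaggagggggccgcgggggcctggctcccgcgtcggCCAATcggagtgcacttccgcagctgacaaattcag
Klf4 promoter: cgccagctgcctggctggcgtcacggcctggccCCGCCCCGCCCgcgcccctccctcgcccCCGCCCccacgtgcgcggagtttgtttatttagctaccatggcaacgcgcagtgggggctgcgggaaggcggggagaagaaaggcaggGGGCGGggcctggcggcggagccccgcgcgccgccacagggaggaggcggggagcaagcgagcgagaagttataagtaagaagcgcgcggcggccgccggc
Fos carried a TATA box that begins at position -33 and a GC box at position -74. Junb carried a CCAAT box at -36, and its TATA letters began at the annotated start itself, outside the stretch printed. Klf4 carried 4 GC boxes and no TATA box in these letters, and its 250 bases were 74.0% G or C, against 58.4% for Fos and 66.4% for Junb. The median over all 32851 promoters was 52.4%. Over windows that reach from 250 bases before the start to 50 after it, on both strands, GGGCGG was found in 6 of the 7 promoters and in 35.7% of all promoters. The CCAAT letters were in 2 of the 7, Jun and Junb, and in 37.4% of all, and TATAAA was in 2 of the 7 and in 13.6% of all. The AP-1 letters TGACTCA, the cyclic AMP response element TGACGTCA, the EGR letters GCGTGGGCG, the ATF4 letters TGATGNAAT and the CArG box were found in 0 of the 7. They were found in 5.2%, 1.79%, 0.612%, 0.965% and 1.63% of all promoters. Such a match describes letters and does not show a bound site. Nor does a missing match show that a gene lacks such a site, inside these windows or outside them. Sites that differ from the letters given, and bases outside these windows, were not searched.

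Per kilobase of merged exon, Egr1 and Fosl2 had the highest mean levels in WT-NT, at 36.9 ± 17.2 and 34.9 ± 0.204 CPM per kilobase (SD, n = 4). Ier2, Junb, Jun and Klf4 followed at 23.1 ± 11.6, 21.5 ± 15.1, 21.0 ± 5.11 and 19.8 ± 6.42 CPM per kilobase. Those 4 did not differ from each other beyond their spread. Fos stood lower at 7.66 ± 2.56, then Klf2 at 4.86 ± 1.44, Fosl1 at 3.48 ± 1.23 and Fosb at 1.01 ± 0.354 CPM per kilobase. In WT-GS the order had changed. Klf4 led at 90.7 ± 4.22 CPM per kilobase (SD, n = 3), ahead of Fosl2 at 29.4 ± 5.24, Egr1 at 21.4 ± 8.50 and Jun at 18.1 ± 2.14, while Junb had moved to 5.38 ± 1.47, near Klf2 at 5.74 ± 1.15 and Fosl1 at 6.46 ± 1.183. Exon lengths came from GENCODE M21 and serve only for this ordering.

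**Figure D1:**
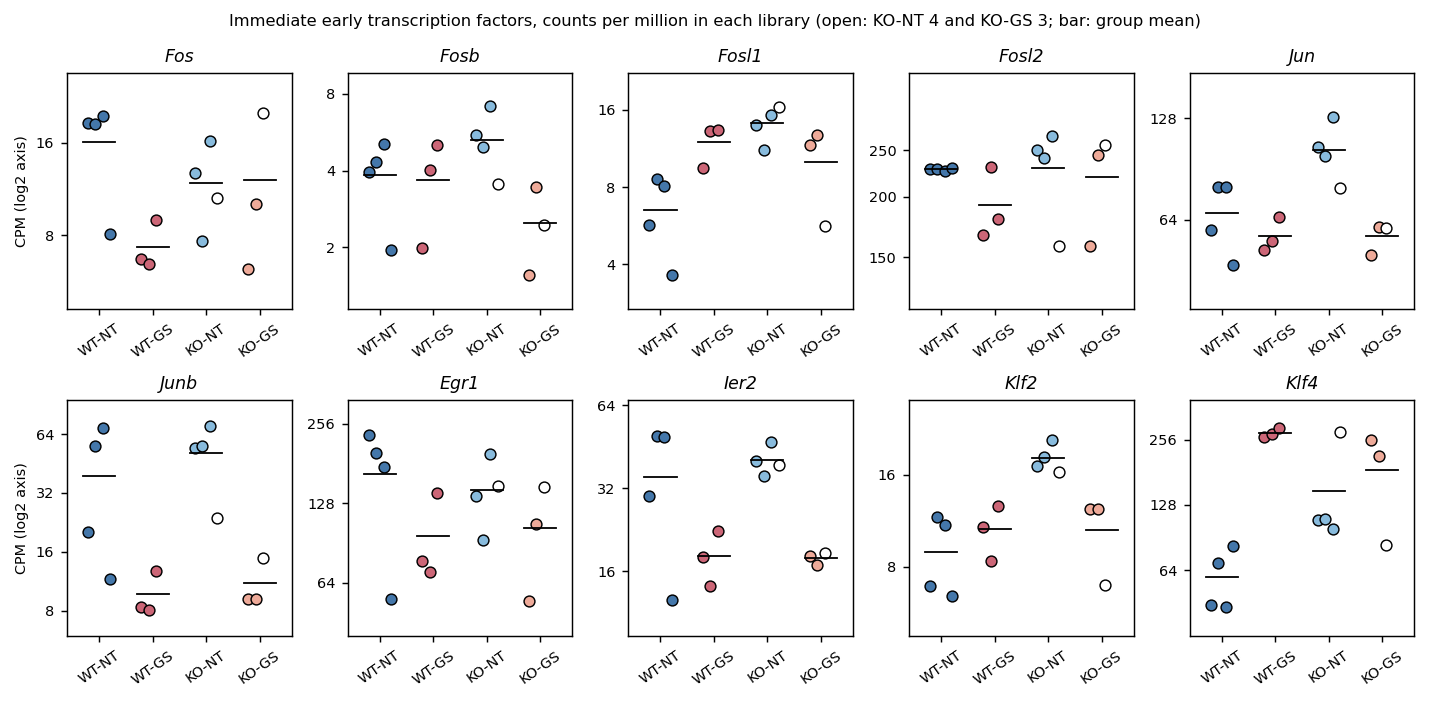
CPM of each of the 10 genes on a log2 axis in the 14 libraries, by group, with open circles for KO-NT 4 and KO-GS 3 and bars at the group means. Klf4 sat between 263 and 288 CPM in WT-GS and at or below 83.1 CPM in WT-NT, and Klf2 sat at or above 16.3 CPM in KO-NT and at or below 11.6 CPM in WT-NT.

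In wild-type cells without glucose, Klf4 and Fosl1 rose and Junb fell, and the other 7 genes did not pass the test. Klf4 had 4.73-fold more RNA, Fosl1 1.91-fold more, and Junb 3.88-fold less. By edgeR's quasi-likelihood test with Benjamini-Hochberg adjustment over all 15666 genes, at an adjusted p under 0.05, 2 of the 10 genes were called higher and 1 lower. Over all genes, 12.9% were called higher and 13.1% lower, so these counts are close to the background of this comparison. DESeq2 called 5 of the 10, the same 3 with Fos and Ier2, beside 38.3% of all genes. By limma-voom 2 were called, Klf4 and Fosl1, beside 23.1% of all genes, and Junb was not (log2 change -1.62, adjusted p = 0.0944). In the same comparison 6 of the 10 fibroblast markers, 3 of the 15 macrophage markers (Cd14, Mrc1 and Cx3cr1) and 1 endothelial marker, Erg, were called lower and 0 of these lists higher.

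Klf4, a Krüppel-like factor known for its part in growth arrest and in reprogramming to pluripotency, stood at 44.4, 68.9, 43.3 and 83.1 CPM in WT-NT 1 to 4 and at 263, 273 and 288 CPM in WT-GS 1 to 3. The groups did not overlap, and the starved libraries lay close together, far above the fed ones. The log2 change was 2.24 (SE 0.413, adjusted p = 0.0245, edgeR). It was 2.26 (SE 0.197, adjusted p = 1.88e-05, edgeR) without KO-NT 4 and KO-GS 3, which share in the spread of the fit. Leaving out WT-NT 3, WT-GS 1, WT-GS 2 or WT-GS 3 from the fit on all libraries ended the call, at adjusted p of 0.0564, 0.0788, 0.0763 and 0.0771 by edgeR. In those fits edgeR called 0, 0, 0 and 1 of all genes, and the log2 change of Klf4 stayed between 2.12 and 2.28. In the 13 fits that left out KO-NT 4 and KO-GS 3, alone or with 1 more library, it was called each time.

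Klf2, its relative, best known as a flow-responsive factor of endothelial cells, was at 6.93, 11.6, 10.9 and 6.45 CPM in WT-NT and at 10.8, 8.38 and 12.6 CPM in WT-GS. Those ranges overlapped, and the log2 change of 0.29 (SE 0.256, adjusted p = 0.403, edgeR) did not pass.

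Of the Fos family, Fosl1, which encodes FRA1, stood at 5.67, 8.61, 8.05 and 3.63 CPM in WT-NT and at 9.50, 13.3 and 13.4 CPM in WT-GS. The groups did not overlap, and Klf4 and Fosl1 were the 2 of the 10 genes that were higher in this way, beside 19.9% of all genes. The log2 change of Fosl1 was 0.93 (SE 0.314, adjusted p = 0.0464, edgeR), close to the threshold. It was called in 3 of the 14 fits that left out 1 library, which were those without KO-NT 4, KO-GS 2 or KO-GS 3, and its adjusted p over the 14 by edgeR ran from 0.0234 to 0.130.

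Fos itself stood at 18.6, 18.5 and 19.5 CPM in WT-NT 1 to 3, at 8.07 CPM in WT-NT 4, and at 6.69, 6.46 and 8.95 CPM in WT-GS. WT-NT 4 lay inside the range of the starved libraries. The log2 change of -1.09 (SE 0.408, adjusted p = 0.0640, edgeR) did not pass with all libraries. It passed without KO-NT 4 and KO-GS 3, at -1.08 (SE 0.352, adjusted p = 0.0324, edgeR), and with WT-NT 4 left out, at -1.31 (adjusted p = 0.0277, edgeR). It also passed with KO-GS 1 or KO-GS 3 alone left out, at adjusted p of 0.0463 and 0.0356 by edgeR.

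Fosb was at 3.95, 4.33, 5.09 and 1.96 CPM in WT-NT and at 1.99, 4.01 and 5.06 CPM in WT-GS, and the ranges coincided almost entirely. Its log2 change was -0.01 (SE 0.405, adjusted p = 0.985, edgeR). Fosl2, which encodes FRA2, was at 228, 229, 227 and 230 CPM in WT-NT, the narrowest group of any of the 10 genes relative to its mean, and at 166, 231 and 180 CPM in WT-GS. Its log2 change of -0.20 (SE 0.203, adjusted p = 0.450, edgeR) did not pass.

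Of the Jun family, Junb, whose protein often opposes c-Jun in growth control, stood at 20.1, 55.7, 68.5 and 11.7 CPM in WT-NT and at 8.35, 8.06 and 12.8 CPM in WT-GS. The 4 fed libraries spanned a wide range, and WT-NT 4 lay below the highest starved library. The log2 change was -1.96 (SE 0.567, adjusted p = 0.0313, edgeR), and -1.94 (SE 0.529, adjusted p = 0.0144, edgeR) without KO-NT 4 and KO-GS 3. Leaving out WT-NT 2, WT-NT 3, WT-GS 1, WT-GS 2 or WT-GS 3 ended the call, at adjusted p of 0.0632, 0.0744, 0.10, 0.0951 and 0.0788 by edgeR.

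Jun, the main DNA-binding partner in AP-1, was at 59.9, 80.3, 80.4 and 47.2 CPM in WT-NT and at 52.0, 55.5 and 65.2 CPM in WT-GS. Its log2 change of -0.17 (SE 0.205, adjusted p = 0.528, edgeR) did not pass, and its starved libraries lay inside the range of the fed ones.

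Egr1, a zinc-finger factor induced by almost every mitogen, was at 233, 199, 175 and 55.6 CPM in WT-NT and at 77.6, 70.5 and 140 CPM in WT-GS. The first 3 fed libraries were above every starved one and WT-NT 4 was below every one. The log2 change of -0.74 (SE 0.4664, adjusted p = 0.234, edgeR) did not pass. Ier2 was at 29.9, 49.4, 49.0 and 12.6 CPM in WT-NT and at 18.0, 14.2 and 22.4 CPM in WT-GS, with the same layout of libraries. Its log2 change was -0.91 (SE 0.3603, adjusted p = 0.0751, edgeR).

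WT-NT 4 thus had the lowest fed value for Fos, Fosb, Fosl1, Jun, Junb, Egr1, Klf2 and Ier2, and the highest for Klf4 and Fosl2. No gene of the 10 was lower without overlap in WT-GS, beside 24.8% of all genes. With WT-NT 4, KO-NT 4 and KO-GS 3 left out, edgeR called Fos, Junb, Egr1 and Ier2 lower, beside 22.9% of all genes, and Fosl1 and Klf4 higher, beside 24.4%. Over both directions that is 6 of the 10, beside 47.3% of all genes. WT-NT 4 held the lowest fed value of each gene called lower and the highest of Klf4. Leaving it out therefore widens those differences by itself, and the added calls are no separate support. With WT-NT 4 kept and the other 2 left out, edgeR called Fos and Junb lower, beside 19.1% of all genes, and Fosl1 and Klf4 higher, beside 20.4%.

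**Figure D2:**
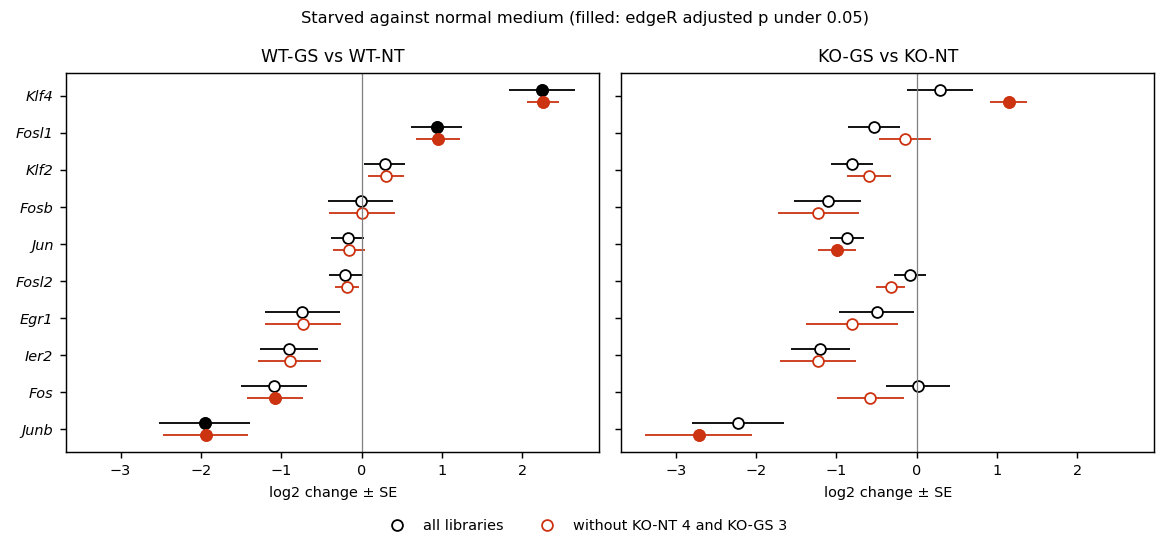
Log2 change ± SE of each gene between glucose-free and normal medium, in wild type on the left and SirT7-/- on the right, from all libraries in black and without KO-NT 4 and KO-GS 3 in red, filled where the edgeR adjusted p was under 0.05. Klf4 lies at 2.24 in wild type and at 0.29 or, without those libraries, 1.15 in SirT7-/-, and Junb lies near -2 or below in both genotypes.

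In SirT7-/- cells the AP-1 genes Jun, Junb and Fosb, together with Ier2 and Klf2, were lower in all 3 starved libraries than in any of the 4 fed ones. That is 5 of the 10 genes without overlap, beside 6.45% of all genes. edgeR called 0 of the 10 after adjustment and 0% of all genes, while the same 5 genes had an unadjusted p under 0.05, beside 18.6% of all genes. DESeq2 called 3, namely Jun, Junb and Ier2, beside 1.98% of all genes, and limma-voom called 0 of the 10 and 0% of all genes.

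Junb was at 54.3, 55.4, 70.6 and 23.8 CPM in KO-NT 1 to 4 and at 9.20, 9.18 and 14.9 CPM in KO-GS 1 to 3. The log2 change was -2.23 (SE 0.573, adjusted p = 0.227, edgeR). Leaving out KO-NT 4 and KO-GS 3 gave -2.71 (SE 0.665, adjusted p = 0.0105, edgeR), which passed. Those libraries held its lowest fed and its highest starved value, so leaving them out widens the fall by itself. The call is therefore no separate support. That call was lost, at adjusted p of 0.0652 and 0.0594 by edgeR, when KO-GS 1 or KO-GS 2 was left out too, which leaves 1 library in the group.

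Jun was at 105, 98.8, 129 and 79.7 CPM in KO-NT and at 50.5, 61.1 and 60.6 CPM in KO-GS. The starved libraries were tight and clearly below the fed ones, with means of 57.4 ± 5.96 CPM (SD, n = 3) and 103 ± 20.3 CPM (SD, n = 4). The log2 change was -0.87 (SE 0.208, adjusted p = 0.227, edgeR) with all libraries and -0.99 (SE 0.240, adjusted p = 0.00982, edgeR) without KO-NT 4 and KO-GS 3. KO-NT 4 held the lowest fed value of Jun, so leaving it out widens the fall by itself. The call without those libraries is therefore no separate support. That call was lost without KO-GS 1 as well, at an adjusted p of 0.0722 by edgeR.

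Ier2 was at 40.2, 35.3, 47.1 and 38.8 CPM in KO-NT and at 18.2, 16.8 and 18.6 CPM in KO-GS. KO-NT 4 and KO-GS 3 both lay with their labelled groups here, and the log2 change was -1.20 (SE 0.364, adjusted p = 0.227, edgeR). Without those libraries it was -1.23 (SE 0.474, adjusted p = 0.0696, edgeR). Fosb, at 5.52, 4.94, 7.14 and 3.54 CPM in KO-NT and 1.55, 3.45 and 2.46 CPM in KO-GS, differed by -1.11 on the log2 scale (SE 0.417, adjusted p = 0.234, edgeR). It was -1.23 (SE 0.507, adjusted p = 0.0867, edgeR) without KO-NT 4, which was next to the highest starved library for this gene, and KO-GS 3.

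Klf2 was at 17.0, 18.2, 20.7 and 16.3 CPM in KO-NT and at 12.4, 12.3 and 6.97 CPM in KO-GS. The fed and starved libraries were separate, and the log2 change was -0.80 (SE 0.261, adjusted p = 0.227, edgeR). It was -0.60 (SE 0.273, adjusted p = 0.116, edgeR) without KO-NT 4 and KO-GS 3.

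Klf4 was at 109, 110 and 99.2 CPM in KO-NT 1 to 3 and at 278 CPM in KO-NT 4. It was at 255 and 216 CPM in KO-GS 1 and 2 and at 83.5 CPM in KO-GS 3. KO-NT 4 was thus the highest and KO-GS 3 the lowest of the 7 SirT7-/- libraries, each against its label. With all libraries the log2 change was 0.29 (SE 0.407, adjusted p = 0.696, edgeR), and without those libraries it was 1.15 (SE 0.230, adjusted p = 0.00384, edgeR). Over the fits that left those libraries out, alone or with 1 more library, the log2 change of Klf4 ran from 1.03 to 1.19. Those libraries held its highest fed and its lowest starved value, so leaving them out raises the change by itself. These fits are therefore no separate support. In the 14 fits that left out 1 library alone, edgeR called Klf4 in 0.

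Fos, Egr1, Fosl1 and Fosl2 did not separate by medium in SirT7-/-. Fos was at 12.8, 7.65, 16.2 and 10.6 CPM in KO-NT and 6.25, 10.1 and 19.9 CPM in KO-GS. Its log2 change was 0.01 (SE 0.397, adjusted p = 0.987, edgeR), and -0.58 (SE 0.416, adjusted p = 0.313, edgeR) without KO-NT 4 and KO-GS 3. Egr1 was at 137, 93.3, 196 and 149 CPM in KO-NT and 54.6, 107 and 147 CPM in KO-GS, with a log2 change of -0.50 (SE 0.463, adjusted p = 0.546, edgeR), or -0.81 (SE 0.573, adjusted p = 0.306, edgeR) without KO-NT 4 and KO-GS 3. For both genes KO-GS 3 was the highest starved library.

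Fosl1 ranged from 11.2 to 16.5 CPM in KO-NT and from 5.62 to 12.7 CPM in KO-GS, with KO-GS 3 the lowest. Its log2 change was -0.53 (SE 0.319, adjusted p = 0.358, edgeR), and -0.15 (SE 0.326, adjusted p = 0.755, edgeR) without KO-NT 4 and KO-GS 3. Fosl2 ranged from 158 to 268 CPM in KO-NT and from 158 to 257 CPM in KO-GS, and the ranges coincided. For Fosl2 the log2 change was -0.08 (SE 0.202, adjusted p = 0.828, edgeR), and -0.32 (SE 0.183, adjusted p = 0.199, edgeR) without those libraries.

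Without KO-NT 4 and KO-GS 3, edgeR called Klf4 higher and Jun and Junb lower, which is 1 of 10 beside 18.6% of all genes and 2 of 10 beside 14.5%. As given above, leaving out those libraries widens these changes by itself. With those libraries left out, 1 of the 10 genes was higher without overlap, beside 33.8% of all genes, and the same 5 as above were lower, beside 30.2%. The median log2 change of the 10 genes was -0.67 with all libraries and -0.70 without those 2, beside 0.01 and 0.03 over all genes. In wild type the median was -0.19, beside -0.04 over all genes.

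**Figure D3:**
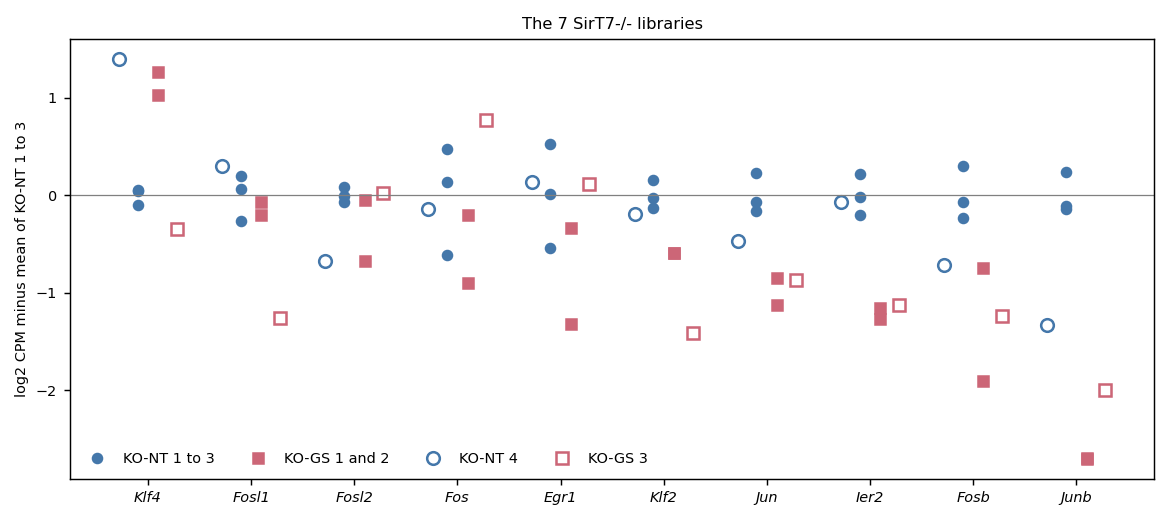
Log2 CPM of each gene in the 7 SirT7-/- libraries relative to the mean of KO-NT 1 to 3, with open symbols for KO-NT 4 and KO-GS 3. For Klf4 the open circle lies above the filled squares and the open square below the filled circles, whereas for Ier2, Jun and Klf2 each open symbol lies nearer its labelled group.

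The libraries that stood apart did not do so for all of the 10 genes. By distance in log2 CPM to the mean of the other libraries of each label, KO-NT 4 was nearer KO-NT 1 to 3 for 7 genes and nearer KO-GS 1 and 2 for 3, which were Fosb, Fosl2 and Klf4. In CPM, without logs, it was nearer KO-NT for 5 genes and nearer KO-GS for 5, Jun and Junb being the others. On either scale KO-GS 3 was nearer KO-GS 1 and 2 for 6 genes, Fosb, Fosl1, Jun, Junb, Klf2 and Ier2, and nearer KO-NT 1 to 3 for 4, Fos, Fosl2, Egr1 and Klf4. Klf4 and Fosl2 were the genes for which both libraries lay nearer the other medium, while the summed fibroblast markers of both libraries were also displaced towards it, as given above.

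In normal medium, Fosl1, Klf2 and Klf4 were higher in all 4 SirT7-/- libraries than in any of the 4 wild-type ones, and Jun overlapped by a narrow margin. That is 3 of the 10 genes without overlap, beside 1.07% of all genes. edgeR called 0 of the 10 after adjustment, beside 0.00638% of all genes, which is 1 gene. Fosl1, Jun, Klf2 and Klf4 had an unadjusted p under 0.05, 4 of the 10, beside 4.2% of all genes. DESeq2 called 1, Klf2, beside 0.147% of all genes, and limma-voom called 0, beside 0.0191%.

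Klf2 averaged 8.97 ± 2.66 CPM (SD, n = 4) in WT-NT and 18.1 ± 1.94 CPM (SD, n = 4) in KO-NT, from the values given above. The lowest SirT7-/- library, at 16.3 CPM, was above the highest wild-type one, at 11.6 CPM. The log2 change was 1.04 (SE 0.240, unadjusted p = 0.000907, adjusted p = 0.891, edgeR), and the adjusted p by DESeq2 was 0.0377. With KO-NT 4 and KO-GS 3 left out it was 1.08 (SE 0.223, adjusted p = 0.317, edgeR).

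Fosl1 averaged 6.49 ± 2.29 CPM in WT-NT and 14.3 ± 2.28 CPM in KO-NT (SD, n = 4 each), and its log2 change was 1.16 (SE 0.297, unadjusted p = 0.00191, adjusted p = 0.968, edgeR). It was 1.08 (SE 0.271, adjusted p = 0.4663, edgeR) without KO-NT 4 and KO-GS 3. Klf4 averaged 59.9 ± 19.5 CPM in WT-NT and 149 ± 86.3 CPM in KO-NT, the latter spread coming from KO-NT 4. Its log2 change was 1.34 (SE 0.385, adjusted p = 0.968, edgeR), and 0.85 (SE 0.194, adjusted p = 0.459, edgeR) without KO-NT 4 and KO-GS 3, where KO-NT stood at 106 ± 5.90 CPM (SD, n = 3).

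Jun averaged 66.9 ± 16.3 CPM in WT-NT and 103 ± 20.3 CPM in KO-NT (SD, n = 4 each), with KO-NT 4 at 79.7 CPM just under the highest wild-type value of 80.4 CPM. For Jun the log2 change was 0.65 (SE 0.190, unadjusted p = 0.00457, adjusted p = 0.968, edgeR), and 0.75 (SE 0.193, adjusted p = 0.4663, edgeR) without KO-NT 4 and KO-GS 3. Junb, Fosb and Fos had log2 changes of 0.42 (SE 0.492), 0.49 (SE 0.375) and -0.42 (SE 0.368), with an adjusted p of 0.968 each by edgeR, and overlapping libraries. These were 0.65, 0.64 and -0.38 without KO-NT 4 and KO-GS 3.

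In normal medium, edgeR called 0 of the 10 genes without KO-NT 4 and KO-GS 3, beside 0.0252% of all genes, and 5 genes were higher without overlap, beside 3.37% of all genes. Those 5 were Fosl1, Fosl2, Jun, Klf2 and Klf4. KO-NT 4 held the lowest KO-NT value of Fosl2 and Jun, so leaving it out adds these genes by itself. The median log2 change of the 10 genes between genotypes in normal medium was 0.46 with all libraries and 0.64 without those 2, beside 0.01 and -0.02 over all genes. This comparison shares the WT-NT libraries with the starvation comparison in wild type. For Klf4 the values side by side were 59.9 CPM in WT-NT, 275 CPM in WT-GS and 149 CPM in KO-NT. For Fosl1 they were 6.49, 12.0 and 14.3 CPM, and for Klf2 they were 8.97, 10.6 and 18.1 CPM.

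In glucose-free medium none of the 10 genes passed the test between genotypes. edgeR called 0 of the 10 genes, beside 0.00638% of all genes, and 0 of the 10 had an unadjusted p under 0.05, beside 3.88% of all genes. DESeq2 and limma-voom called 0 too, beside 0.0448% and 0.00638% of all genes. Klf4 was the 1 gene of the 10 that was lower without overlap, beside 3.63% of all genes. It averaged 275 ± 12.8 CPM in WT-GS and 185 ± 89.8 CPM in KO-GS (SD, n = 3 each). Its log2 change was -0.62 (SE 0.438, adjusted p = 0.893, edgeR), and without KO-NT 4 and KO-GS 3, where KO-GS stood at 235 ± 27.7 CPM (SD, n = 2), it was -0.26 (SE 0.234, edgeR). Fos had a log2 change of 0.68 (SE 0.427) and Fosb one of -0.60 (SE 0.435), with an adjusted p of 0.893 each by edgeR. These were 0.12 and -0.59 without KO-NT 4 and KO-GS 3. Jun averaged 57.6 ± 6.83 CPM in WT-GS and 57.4 ± 5.96 CPM in KO-GS, and Klf2 averaged 10.6 ± 2.13 and 10.6 ± 3.10 CPM. With KO-NT 4 and KO-GS 3 left out, edgeR called 0 of the 10, beside 0.0063% of all genes.

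**Figure D4:**
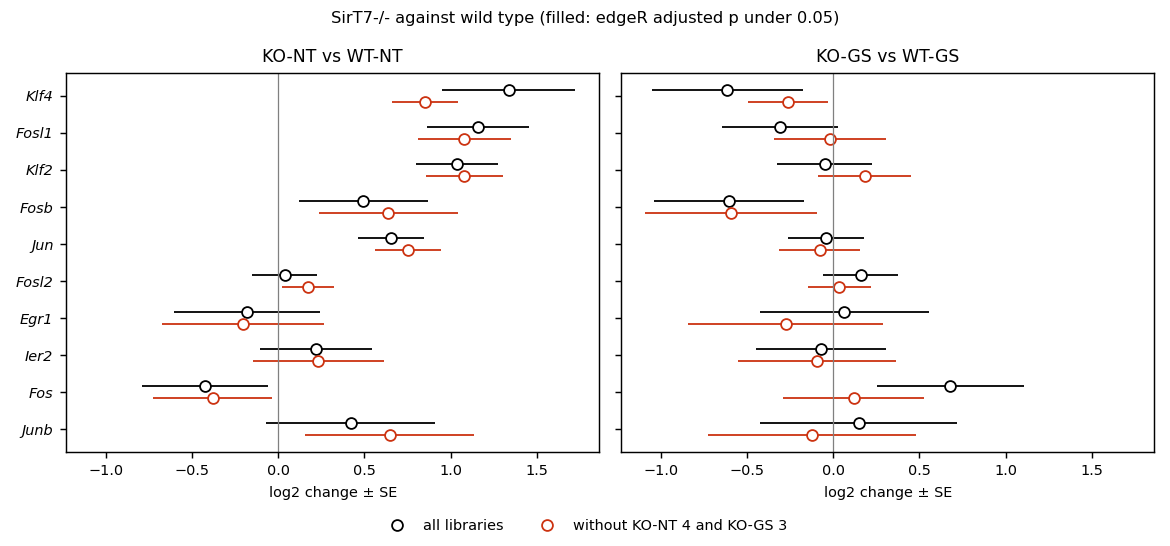
Log2 change ± SE of each gene between SirT7-/- and wild type, in normal medium on the left and glucose-free medium on the right, from all libraries in black and without KO-NT 4 and KO-GS 3 in red, with no point filled since none had an edgeR adjusted p under 0.05. Klf4, Fosl1, Klf2 and Jun lie at 1.34, 1.16, 1.04 and 0.65 on the left with all libraries, and each of the 4 lies at or below 0 on the right with all libraries.

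The difference between the genotypes' answers to starvation was tested as an interaction. edgeR called 0 of the 10 genes and 0% of all genes, and 4 of the 10, Fosl1, Jun, Klf2 and Klf4, had an unadjusted p under 0.05, beside 6.06% of all genes. DESeq2 and limma-voom called 0 of the 10, beside 0.032% and 0% of all genes. The interaction was -1.95 on the log2 scale for Klf4 (SE 0.584, unadjusted p = 0.00553, adjusted p = 0.680, edgeR). It was -1.47 for Fosl1 (SE 0.450), -1.09 for Klf2 (SE 0.364) and -0.70 for Jun (SE 0.289), with an adjusted p of 0.680 each by edgeR. These are the 4 genes with an unadjusted p under 0.05 in normal medium, and the interaction contains that contrast, so this is no second observation. Fosb had an interaction of -1.10 (SE 0.574, adjusted p = 0.680, edgeR). Without KO-NT 4 and KO-GS 3 edgeR called 0 of the 10 and 0% of all genes, and the interaction of Klf4 was -1.11 (SE 0.307, unadjusted p = 0.00410, edgeR). That of Fosl1 was then -1.10, of Klf2 -0.90, of Jun -0.83 and of Fosb -1.23.

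The genes differed in how much replicates of a group varied. The pooled SD of log2 CPM within groups was 0.81 for Junb, 0.71 for Egr1, 0.59 for Klf4, 0.58 for Fos and Fosb, 0.55 for Ier2, 0.47 for Fosl1 and 0.36 for Klf2. The median over the 15666 genes was 0.28. Jun and Fosl2, at 0.29 each, were near that median, and the other 8 lay at the 60.6th to the 86.1th percentile. Without KO-NT 4 and KO-GS 3 the median over all genes was 0.22, and Klf4 went to 0.29 while Junb remained at 0.78.

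Across the 14 libraries the 10 genes did not move as 1 block. Fos correlated best with Egr1 among the 10 (Pearson r of log2 CPM 0.88), Junb with Ier2 (0.93), Jun with Junb (0.88) and Fosl1 with Klf2 (0.82). Fosl2 had no close companion, with 0.54 to Fosb as its highest. Klf4 ran against Fos (-0.76) and Junb (-0.60). These values describe 14 libraries that share their groups and their medium, so they are given with no test.

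Of the other genes in the table with a mean of at least 5 CPM, the 3 nearest to Fos were Btg2 (0.89), Zfp36 (0.86) and Nfkbiz (0.86), all known as rapidly induced genes. The nearest to Egr1 were Slc25a25 (0.86), Hspa14 (0.84) and Zfp36 (0.82). Junb went with Ccdc124 (0.98), Zbtb45 (0.98) and Arhgef1 (0.98), and Ier2 with Ptrhd1 (0.95), Timm50 (0.95) and Senp3 (0.94). For Fosl1 they were Ccdc86, Nol6 and Rrp12 (0.95, 0.92 and 0.91), of which Nol6 and Rrp12 act in ribosome assembly.

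Fosl2 went with Thbs1, Myh11 and Rgs4 (0.96, 0.95 and 0.94), of which Myh11 encodes smooth muscle myosin and Thbs1 thrombospondin. Klf2 went with Rhob, Fbxl14 and Sp2 (0.95, 0.94 and 0.92), and Klf4 with Fam214b, Txnrd3 and Lgalsl (0.96 each). Jun went with Sf3b4, Asb6 and Tbcc (0.94, 0.93 and 0.93), and Fosb with Csnk1e, Foxs1 and Relt (0.91 each).

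Of 30 other immediate early genes, edgeR called 3 higher in WT-GS, Maff, Hbegf and Atf3, and 3 lower, Ier5, Egr2 and Zfp36, and their median log2 change was -0.10. Atf3, a stress-induced factor that can pair with Jun proteins, went from 10.3 ± 3.86 CPM (SD, n = 4) in WT-NT to 32.5 ± 6.92 CPM (SD, n = 3) in WT-GS, a log2 change of 1.70 (SE 0.473, adjusted p = 0.0283, edgeR). Egr2, the nearest relative of Egr1, went from 19.2 ± 9.93 to 4.15 ± 1.56 CPM, a log2 change of -2.17 (SE 0.694, adjusted p = 0.0401, edgeR). Hbegf, which encodes a ligand of the EGF receptor, went from 65.0 ± 15.03 to 166 ± 37.0 CPM. Over all genes in this comparison, 12.9% were called higher and 13.1% lower, as given above, and these shares stand beside the counts of every list here.

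Of 14 tested AP-1 partners and other bZIP genes, 4 were called higher, Maff, Atf2, Mafk and Atf3, and Batf and Maf were among those called lower. The small Maf gene Mafk went from 35.9 ± 3.20 to 103 ± 5.06 CPM, a log2 change of 1.57 (SE 0.380, adjusted p = 0.0245, edgeR), and Maff moved by 1.32 (SE 0.290, adjusted p = 0.0245, edgeR). For Jund, the remaining Jun gene, the log2 change was -0.44 (SE 0.421, adjusted p = 0.437, edgeR). Of 5 tested EGR relatives and NAB repressors, 1 was called, Egr2, and the median log2 change was -0.42.

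Of 12 other KLF genes tested, 4 were called higher, Klf13, Klf8, Klf3 and Klf9, and 0 lower, with a median log2 change of 0.42. Klf9 went from 37.6 ± 15.4 to 74.0 ± 11.2 CPM and Klf13 from 143 ± 8.52 to 214 ± 14.99 CPM. The fit without KO-NT 4 and KO-GS 3 called 6 higher and 0 lower, Klf15 and Klf10 being added. Klf4 was thus 1 of several Krüppel-like factors with more RNA in starved wild-type cells.

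Of 8 genes of SRF and its cofactors, 2 were called lower in WT-GS, Mkl2 and Srf, and 0 higher, with a median log2 change of -0.43. Srf went from 93.8 ± 24.6 to 54.9 ± 6.04 CPM, a log2 change of -0.73 (SE 0.239, adjusted p = 0.0430, edgeR). Of 24 genes of the MAP kinase cascade, 7 were called higher and 3 lower. Those lower were Mapk3, which encodes ERK1, Rps6ka1 and Mapk11. The log2 change of Mapk3 was -0.77 (SE 0.174, adjusted p = 0.0245, edgeR).

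Of 18 tested feedback inhibitors of MAP kinases, 4 were called higher, Dusp4, Dusp1, Dusp8 and Spry2, and 2 lower, Spry1 and Dusp7. Dusp4, a phosphatase that acts on nuclear ERK, went from 47.3 ± 12.1 to 172 ± 14.2 CPM, a log2 change of 1.91 (SE 0.373, adjusted p = 0.0245, edgeR). Dusp1 went from 52.7 ± 12.7 to 115 ± 16.6 CPM. Of 16 genes known to answer to AP-1, 3 were called higher, Cd44, Timp1 and Hmga1, and 4 lower, Plau, Spp1, Il6 and Ccnd1. The median over all genes was -0.04 in this comparison.

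In SirT7-/- the call of a list depended on the libraries that stood apart. With all libraries, edgeR called no gene of the table without glucose, and DESeq2 called 255. Without KO-NT 4 and KO-GS 3, where it called 18.6% of all genes higher and 14.5% lower, edgeR called 1 of the 30 other immediate early genes higher, Maff, and 7 lower, among them Ier5, Egr2 and Trib1. For Egr2 the log2 change was -2.82 (SE 0.672, adjusted p = 0.00912, edgeR). Of the 5 EGR relatives and NAB repressors 4 were lower, Egr2, Egr3, Nab1 and Nab2. Of the 12 other KLF genes 3 were higher, Klf15, Klf3 and Klf8, and 1 was lower, Klf7, and of the 8 SRF genes 3 were lower, Mkl1, Mkl2 and Srf. Of the 18 feedback inhibitors 3 were higher, Dusp4, Spry2 and Dusp1, and 2 lower, Dusp7 and Errfi1. For Dusp4 it was 1.22 (SE 0.226, adjusted p = 0.00260, edgeR). Of 15 bZIP genes tested 4 were higher, Mafk, Atf2, Creb1 and Maff, and 0 lower. Of the 24 MAP kinase genes 6 were higher and 2 lower, Mapk3 and Mapk11. Of the 16 genes known to answer to AP-1, 4 were higher, Cd44, Mmp13, Timp1 and Hmga1, and 4 lower, Plau, Il6, Ccl2 and Spp1.

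Fosl1 overlaps Ccdc85b, Jun overlaps Junos and Junb overlaps Prdx2 on the opposite strand in GENCODE M21. The strand setting of the counting is not given in the sources used here, so reads of such pairs cannot be told apart. Prdx2 went from 225 ± 30.0 CPM (SD, n = 4) in WT-NT to 164 ± 12.5 CPM (SD, n = 3) in WT-GS, and stood at 193 ± 31.6 CPM in KO-NT and 184 ± 36.4 CPM in KO-GS. Ccdc85b averaged 21.9 ± 7.56 CPM in WT-NT, 24.4 ± 3.92 CPM in WT-GS, 23.5 ± 12.2 CPM in KO-NT and 21.3 ± 4.79 CPM in KO-GS. The part of these genes' reads in the values of Junb and Fosl1 was not tested.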

How the data were processed

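RNA of the 14 libraries was extracted with an RNeasy kit and prepared with the TruSeq RNA kit v2, per the labels' protocols. The authors deposited estimated counts per gene symbol as whole numbers. Per the submitters' processing notes, the tools were FastQC 0.11.3, Trimmomatic 0.36, HISAT2 2.1.0, SAMtools, StringTie 1.3.3 and DESeq2 1.18.1 on build mm9. The annotation, read length and strand setting are not given in the sources used here. In 27 entries, none a member, a date stood for a symbol.

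The 10 genes and the lists of related genes were chosen with earlier results of these data known. Counts were fitted by the quasi-likelihood F-test of edgeR 4.0.16 in R 4.3.3 (robust, TMM, filterByExpr with minimum count 10 and minimum total 15, 1 mean per group over 14 libraries). Adjustment was by Benjamini-Hochberg over 15666 genes, or 15864 without KO-NT 4 and KO-GS 3, and calls were made at an adjusted p under 0.05. The SE was worked back from the F statistic. CPM corrects each count for the total of its library, and precision at these depths covers counting error only. Alternatives were DESeq2 1.42.0, voom of limma 3.58.1, other normalizations and filters, a fit on the groups compared, a replicate block and leaving out libraries. The choice of KO-NT 4 and KO-GS 3 as libraries to leave out itself rests on their values in these data. Leaving out KO-NT 4, KO-GS 3 and 1 further library was added after seeing the data. The steps were tested on simulated data. Genes named besides the 10 were Sirt7, up to 3 of each list with the smallest p, any gene where a count of 5 or fewer is given, and the 3 of at least 5 CPM nearest to each of the 10. Jund, Klf10 and the overlapping genes Ccdc85b, Junos and Prdx2 were named outside this rule, after their values had been seen. Some genes of the lists are not reported here. Correlations used log2 CPM with a prior count of 2. Promoter sequences were matched by symbol in RefSeq.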

Additional observations from a re-analysis of the deposited data

Results flagged for a closer look

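In groups of 4, a library was marked where its gap to the nearest of the others took an unusually large part of the group's range. Over 20 such groups, 2 libraries were marked, and chance marks about 1 in 20 groups. Fos in WT-NT 4 was at 8.07 CPM, against 18.5 to 19.5 CPM in the other WT-NT libraries, a gap of 0.912 of the range. Klf4 in KO-NT 4 was at 278 CPM, against 99.2 to 110 CPM in the other KO-NT libraries, a gap of 0.941 of the range.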

How the results depend on the processing

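Of the 10 genes edgeR called 3 in wild type, beside 25.9% of all genes. DESeq2 called 5 (38.3% of all genes), the replicate block 5 (Klf4, Fos, Jun, Junb and Ier2, 42.3%), and the fit without KO-NT 4, KO-GS 3 and WT-NT 4 called 6 (47.3%). Leaving out 1 library at a time gave 0 to 4, with 0 without WT-NT 3, WT-GS 1, WT-GS 2 or WT-GS 3, where edgeR called 0, 0, 0 and 1 of all genes, and 1, Klf4, without WT-NT 2. In SirT7-/- edgeR called 0 (0% of all genes), DESeq2 3 (1.98%), the replicate block 5 (19.8%), the fit without KO-NT 4 and KO-GS 3 called 3 (33.1%) and that without WT-NT 4 too called 5 (39.9%), while leaving out 1 library gave 0 to 4, the 4 without KO-NT 4 (21.1%). In fits that leave 1 library in KO-GS, that library is assumed to vary like the other groups. Between genotypes in normal medium DESeq2 called 1 (0.147%). The log2 change of Fosb in wild type, -0.01 with all libraries, was 0.003615 without KO-NT 4 and KO-GS 3, and -0.33 to 0.29 with 1 library left out, from either set. That of Fos between genotypes in glucose-free medium was 0.68, and ran from -0.32, without KO-NT 4, KO-GS 3 and KO-GS 2 together, to 0.98, without KO-GS 1 alone. Only 33 results, each of 1 gene in 1 comparison and not all such results, were followed over the alternatives in this count. Of their 1150 log2 changes, 1038 kept direction and side of the threshold, 29 lost the call, 71 gained it, and 12 changed sign, in 2 results. Outside these 33, signs changed too. Between media in SirT7-/-, the log2 change of Fos ran from -1.04 to 0.33 and that of Fosl2 from -0.75 to 0.13. The cause was not tested. Whether replicate numbers pair the samples is not settled. Deviations of the 13 same-numbered pairs correlated from -0.12 to 0.46, and 8 exceeded 0.1, but pairs with different numbers were not compared. The lowest count of any member was 124, so none was near the limit of detection.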
